A study of Mus musculus with 2 samples.

Results

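The layer 6 corticothalamic-type neurons described here are cells of the embryonic mouse cortex that carried many transcripts of *Hs3st4* together with *Tle4*. They numbered 1648 of the 22347 cell barcodes that passed the quality limits in 2 libraries, 800 of 10879 in embryo 4 and 848 of 11468 in embryo 5. Barcodes with fewer than 1000 genes or over 10% of their transcripts from mitochondrial genes were set aside. Members were chosen by measured counts: at least 5 *Hs3st4* unique molecular identifiers (UMIs, the tags that count single captured transcripts), 1 or more of *Tle4*, no more than 1 of *Nr4a2*, 3 or more of *Neurod2* plus *Neurod6* and no more than 1 of *Gad1* plus *Gad2*. These 7 genes chose the cells, and their levels are given as a description; *Tle4* stayed among the genes fitted in the split of members by *Hs3st4*, where it is left out of the layer 6 count.

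Both libraries came from single embryos at embryonic day 16.5, genotype WT, with sample titles that start with the line name EoMltt3. The source is given as brain hemispheres, from which the cortex was taken, dissociated with papain and loaded on a 10x Genomics single cell 3' v3.1 chip. There is 1 condition, so comparisons are between groups of cells of the same 2 embryos. A p-value rests only on the spread between sums from these 2 animals, moderated by the spread over all genes. The main fits do not pair the sums of an embryo. No projection target, layer position or protein was measured, and the name rests on transcripts alone.

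Layer 6 corticothalamic neurons are early-born glutamatergic neurons of the deep cortical plate whose axons run to the thalamus, where they shape the relay of sensory signals. The T-box factor TBR1 and the co-repressor TLE4 are known for holding them apart from layer 5 neurons, which need FEZF2 and BCL11B (CTIP2) and project to the brainstem and spinal cord. HS3ST4 adds a 3-O-sulfate group to heparan sulfate chains on the cell surface, and RGS6 speeds the shut-off of G protein signals in a complex with the beta subunit GNB5.

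The marker genes lie on 4 chromosomes of the mouse assembly GRCm38.p6 (mm10). *Hs3st4* spans 7:123982366-124398989, *Tle4* 19:14448072-14598183, *Rgs6* 12:82616551-83162061 and *Tbr1* 2:61802863-61814114. Printed here from RefSeq are the 250 bases before an annotated promoter start of the gate gene *Hs3st4* and of the markers *Rgs6* and *Tbr1*. They run 5′ to 3′ on the strand of the gene. *Hs3st4* was chosen as a gate gene, and *Rgs6* and *Tbr1* as markers that did not enter the gate. The window of *Tle4*, a marker and gate gene, is not printed here. For each gene this start lies within the span given above, so the window lies within that span too. Capitals mark the only match found to 3 short motifs, searched on both strands: the T-box core GGTGTGA, the NEUROD E-box CAGATG and the SOX core AACAAT.
Hs3st4 (chr7:123982578-123982827, plus strand): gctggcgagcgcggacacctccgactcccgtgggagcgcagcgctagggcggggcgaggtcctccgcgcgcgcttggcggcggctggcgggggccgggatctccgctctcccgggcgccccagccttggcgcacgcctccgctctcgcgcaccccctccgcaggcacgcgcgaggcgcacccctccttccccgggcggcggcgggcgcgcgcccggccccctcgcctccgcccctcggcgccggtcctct
Rgs6 (chr12:82617249-82617498, plus strand): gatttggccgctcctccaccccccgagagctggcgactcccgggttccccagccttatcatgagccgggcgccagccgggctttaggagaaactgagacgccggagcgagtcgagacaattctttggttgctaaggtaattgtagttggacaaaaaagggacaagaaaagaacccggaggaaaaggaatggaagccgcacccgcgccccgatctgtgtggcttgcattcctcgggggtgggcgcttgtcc
Tbr1 (chr2:61804203-61804452, plus strand): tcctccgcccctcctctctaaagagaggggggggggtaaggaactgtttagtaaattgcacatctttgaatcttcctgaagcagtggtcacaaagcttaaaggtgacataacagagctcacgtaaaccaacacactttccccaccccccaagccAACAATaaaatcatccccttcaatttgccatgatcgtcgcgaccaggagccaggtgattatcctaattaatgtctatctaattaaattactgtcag
The *Hs3st4* window was 82.0% G and C with 43 CpG pairs and the *Rgs6* window 59.2% with 18 CpG pairs, against 45.2% and 5 CpG pairs at *Tbr1*. Over all 32851 RefSeq mouse promoters of the same length the median was 52.4% (quartiles 45.2 and 61.2) and 6 CpG pairs (quartiles 2 and 16). The T-box core was found in 3.33% of all promoters, the NEUROD E-box in 14.4% and the SOX core in 9.42%. The match in *Tbr1* is a description of letters, not of a bound site, and windows without a match say nothing about these factors.

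The libraries held 12825 and 12289 barcodes and 124318613 and 117679925 UMIs for embryos 4 and 5, and 35 kept barcodes occurred in both. Kept barcodes had a median of 10329 and 9199 UMIs, while members had 13749 and 11890, so that members were sampled more deeply. Of the members, 13.5% and 14.7% looked like doublets by their likeness to simulated pairs of cells, against 8.70% and 9.17% of kept barcodes. Of the 3477 genes with at least 50 CPM in members 3 differed more than 2-fold between the embryos, *Ttr*, *Hba-a2* and *Gm10076*, and the median size of the difference was 0.07 on the log2 scale. Most of the *Ttr* (choroid plexus transthyretin) and haemoglobin transcripts of members sat in a few barcodes: 2 barcodes per embryo held 88.6% and 66.8% of the haemoglobin UMIs, and 1 barcode of embryo 5 held 96.1% of its *Ttr* UMIs.

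Members made up 7.35% of kept barcodes in embryo 4 (exact binomial 95% interval 6.87 to 7.86) and 7.39% in embryo 5 (6.92 to 7.89). These intervals cover counting error only, and the share was set by the rule. Before the limit on *Hs3st4* was applied, 3428 and 3598 barcodes met the other conditions, of which 2475 and 2604 had 0 or 1 *Hs3st4* UMI and 153 and 146 had 2 to 4. Members carried a median of 21 and 18 *Hs3st4* UMIs, with quartiles of 12 and 35 in embryo 4 and 11 and 33 in embryo 5 and a highest value of 164 and 127. The counts therefore ran from a large group near 0 to a broad range of high values. No gap marked the limit, with 27 and 32 barcodes at exactly 5 UMIs and 23 and 34 at exactly 10.

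**Figure D1:**
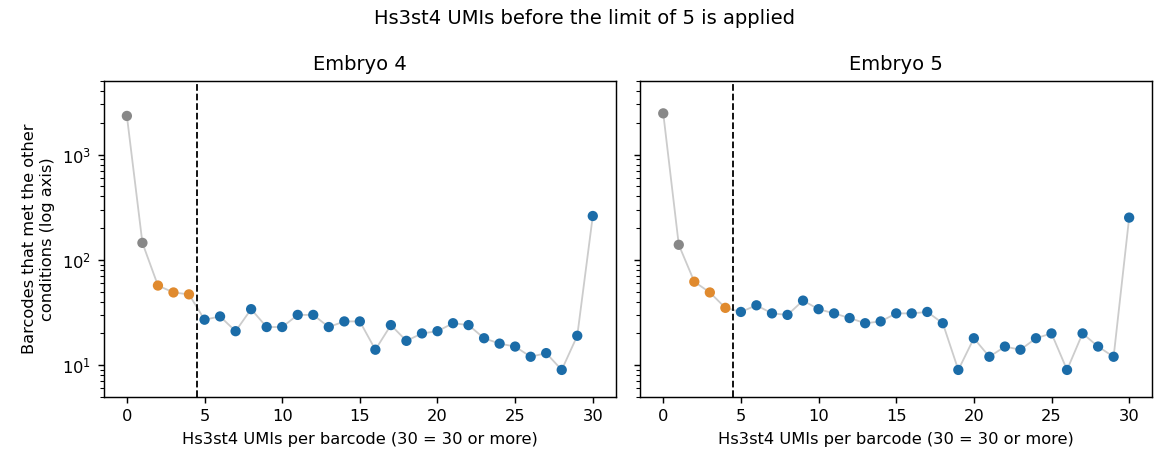
Number of barcodes (log axis) that met every condition except that on *Hs3st4*, by their *Hs3st4* UMIs, in embryo 4 and embryo 5. The dashed line marks the limit, with members in blue to its right, the 153 and 146 barcodes with 2 to 4 UMIs in orange and those with 0 or 1 in grey; the last point gathers all barcodes with 30 or more.

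Members just inside the limit, with 5 to 7 *Hs3st4* UMIs, numbered 77 and 100. Their *Rgs6* level was 1098 and 906.3 CPM (the gene's share of all UMIs of the group, scaled to a common total), against 758.6 and 698.5 CPM in the barcodes just outside it with 2 to 4 UMIs and 87.5 and 105.9 CPM in those with 0 or 1. *Foxp2*, a forkhead factor known for layer 6, stood at 591.9 and 513.2 CPM just inside and 402.1 and 458.5 CPM just outside, and at 324.7 and 288.6 CPM in those with 0 or 1. The barcodes just outside the limit thus lay between the others in both genes, and the limit falls within a range of intermediate levels.

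The level of each marker was read in 6 groups of cells gated on a few transcripts each. Apart from members these were *Nr4a2* neurons (at least 3 *Nr4a2* UMIs, 142 and 183 cells, a gate that reaches subplate-type neurons), *Fezf2* *Bcl11b* neurons (1647 and 1565 cells with at most 1 *Hs3st4* and *Nr4a2* UMI), *Eomes* progenitors (1308 and 1303), *Sox2* *Hes5* progenitors (903 and 857) and *Gad1* *Gad2* neurons (1273 and 1315).

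*Hs3st4* stood at 1825 and 1848 CPM in members, at 1003 and 885.3 CPM in *Nr4a2* neurons and at 42.4 and 25.1 CPM in *Gad1* *Gad2* neurons. In the other 3 groups it lay between 2.94 and 6.73 CPM. The gates of *Fezf2* *Bcl11b* neurons and *Eomes* progenitors allow at most 1 *Hs3st4* UMI per cell, which limits their level, and no order is read among these 3. *Tle4* stood at 774.7 and 916.6 CPM in members and at 887.4 and 947.1 CPM in *Nr4a2* neurons, so that these 2 groups overlapped. The next group, *Gad1* *Gad2* neurons, had 142.0 and 170.3 CPM of *Tle4*, and the lowest, *Eomes* progenitors, 60.02 and 67.2 CPM. Both genes entered the gate, and these values are a description.

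*Rgs6* and *Tbr1* did not enter any gate. *Rgs6* stood at 1469 and 1331 CPM in members, 637.4 and 614.9 CPM in *Nr4a2* neurons and 170.3 and 223.0 CPM in *Fezf2* *Bcl11b* neurons. It lay between 11.9 and 34.8 CPM in progenitors and *Gad1* *Gad2* neurons. The first 3 groups of this order did not overlap. *Tbr1* stood at 240.8 and 205.1 CPM in members, 200.4 and 195.0 CPM in *Nr4a2* neurons, 98.5 and 91.8 CPM in *Fezf2* *Bcl11b* neurons and 67.4 and 54.2 CPM in *Eomes* progenitors. Its fall from *Nr4a2* to *Fezf2* *Bcl11b* neurons was larger than the spread between embryos, while members and *Nr4a2* neurons lay side by side. *Tbr1* was lowest in *Sox2* *Hes5* progenitors, with 4.98 and 3.55 CPM.

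**Figure D2:**
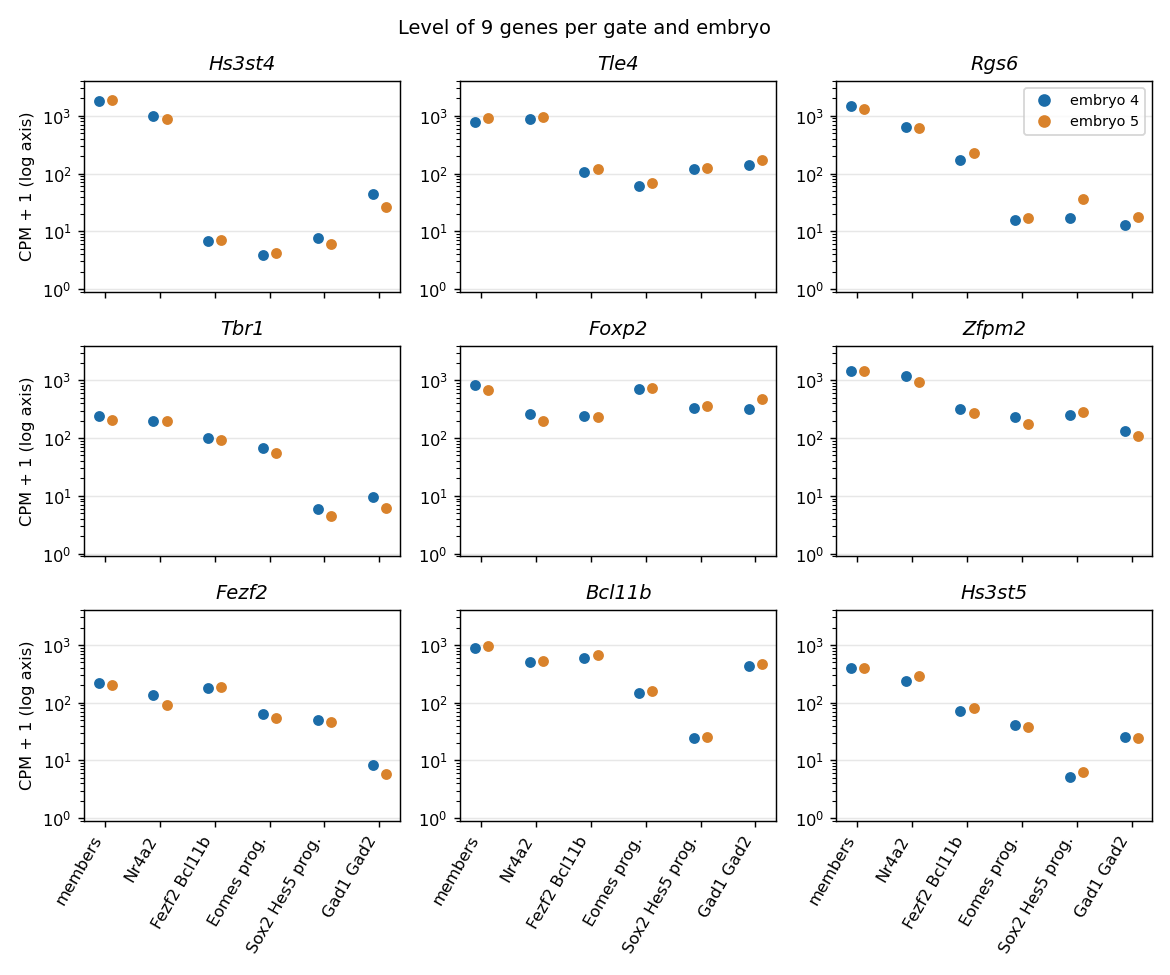
CPM plus 1 (log axis) of 9 genes in 6 gated groups of cells, 1 point per embryo. *Rgs6* and *Zfpm2* are highest in members in both embryos, *Tle4* is alike in members and *Nr4a2* neurons, and *Hs3st5* stands at 402.9 and 391.6 CPM in members against 238.8 and 292.8 CPM in *Nr4a2* neurons.

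To compare groups at equal depth, each cell was thinned to 5000 UMIs, which left 774 and 812 members. At this depth 91.6% and 90.4% of members had at least 1 *Rgs6* UMI (exact binomial 95% intervals 89.4 to 93.5 and 88.2 to 92.3; 95.9% and 94.7% unthinned), against 4.57% and 7.25% of *Sox2* *Hes5* progenitors and 2.62% and 2.57% of *Gad1* *Gad2* neurons. *Tbr1* was found in 68.6% and 61.9% of members (91.9% and 88.1% unthinned), against 38.1% and 35.1% of *Hs3st4*-low excitatory neurons and 2.51% and 1.57% of *Sox2* *Hes5* progenitors. *Foxp2* was found in 75.5% and 71.2% of members, against 59.4% and 61.4% of *Sox2* *Hes5* progenitors. The zinc finger factor *Zfpm2* (FOG2) was found in 91.0% of members in embryo 4 (interval 88.7 to 92.9) and 731 of 812 in embryo 5. *Zfpm2* was also found in 468 of 876 and 497 of 828 *Sox2* *Hes5* progenitors, and in 91 of 140 and 87 of 180 *Nr4a2* neurons. Detection of *Foxp2* and *Zfpm2* was thus common in these progenitors, unlike that of *Rgs6* and *Tbr1*. *Crym*, a thyroid hormone binding protein, was found in 5.04% and 7.76% of members. *Rgs6* was found in a smaller share of *Nr4a2* neurons (intervals 56.5 to 72.9 and 47.4 to 62.4). In barcodes just outside the *Hs3st4* limit it was found in 63.4% and 65.5%. *Tbr1* was found in 64.3% of *Nr4a2* neurons in embryo 4 (interval 55.8 to 72.2) and 108 of 180 in embryo 5 (52.4 to 67.2). These *Tbr1* intervals overlap those of members, 65.2 to 71.9 and 58.5 to 65.3. Of the given markers *Rgs6* was thus detected in nearly every member and *Tbr1* in most, while the adult-type layer 6 gene *Crym* was detected in few. Detection of *Tbr1* did not set members apart from *Nr4a2* neurons.

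The layer 5 factor *Bcl11b* was present in 96.4% and 96.6% of thinned members and *Fezf2* in 60.1% and 58.0%. Both were thus found in most members at this depth.

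A gate that uses a gene's own counts inflates that gene. UMIs were therefore split at random into 2 sets of equal expected size, the conditions were applied to the first, and levels were read from the second. In the second set the resulting 751 and 779 members had 1857 and 1924 CPM of *Hs3st4*, 834.4 and 979.4 CPM of *Tle4*, 1474 and 1336 CPM of *Rgs6* and 239.3 and 204.8 CPM of *Tbr1*. *Hs3st4*-low excitatory neurons gated in the same way had 17.6 and 15.8, 104.0 and 113.3, 121.5 and 136.6, and 108.7 and 98.3 CPM. The order of the 2 groups was the same for each of the 4 markers in UMIs that had not chosen the cells. Both groups were still chosen by *Hs3st4*, and members also by *Tle4*, so the order of these genes is a description.

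Which genes set these neurons apart from the other excitatory neurons was asked by comparing members with 5375 and 5865 *Hs3st4*-low excitatory neurons, cells with at least 3 *Neurod2* and *Neurod6* UMIs, at most 1 *Gad1* and *Gad2* UMI and at most 1 *Hs3st4* UMI. Members carried more transcripts of most layer 6 genes, of the glutamate receptor subunits *Grik3* and *Gria1* and of the 3-O-sulfotransferases *Hs3st3b1*, *Hs3st5* and *Hs3st2*, and fewer transcripts of most upper layer genes, of the migration receptors *Unc5d* and *Plxna4* and of the vesicular glutamate transporter *Slc17a6*. Counts were summed per embryo and group and tested with edgeR's quasi-likelihood test, 2 sums against 2, at an adjusted p of 0.05. Of 16996 genes tested, 3206 were higher in members (18.9%) and 3035 lower (17.9%), and a count over a list is read against these shares.

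Of the layer 6 list, which has 24 genes, 22 were tested, 19 were higher, 2 were lower and the median log2 fold change was 1.62, against -0.00472 over all genes tested. *Rgs6* was 3.86 higher on the log2 scale (SE 0.11, edgeR adjusted p = 8.98e-07). *Tbr1* stood at 240.8 and 205.1 CPM in members against 105.2 and 95.9 CPM, a log2 fold change of 1.26 (SE 0.09, edgeR adjusted p = 3.49e-05). *Zfpm2* stood at 1480 and 1444 CPM against 219.8 and 170.7 CPM (log2 fold change 3.02, SE 0.11, edgeR adjusted p = 2.39e-06). *Foxp2* rose less, with 822.8 and 675.0 CPM against 307.7 and 271.9 CPM (1.48, SE 0.10, edgeR adjusted p = 3.56e-05), and *Sox5*, a SOX factor that times deep layer identity, stood at 4988 and 4826 CPM against 1984 and 2071 CPM (1.39, SE 0.06, edgeR adjusted p = 4.12e-06). In none of these genes did the groups overlap.

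Genes that mark corticothalamic neurons in the adult were higher but few in number of transcripts. *Crym* had 23.1 and 27.5 CPM in members against 8.89 and 7.15 CPM (log2 fold change 1.77, SE 0.14, edgeR adjusted p = 6.19e-05). The neurotensin receptor *Ntsr1*, used for Cre lines of this cell type, had 9.32 and 11.1 CPM against 5.32 and 5.44 CPM (1.03, SE 0.14, edgeR adjusted p = 0.000966). The dopamine receptor *Drd1* had 7.73 and 7.15 CPM against 0.306 and 0.232 CPM (4.88, SE 0.26, edgeR adjusted p = 1.11e-05). *Ephb6* and *Igsf21* were the 2 list genes that were lower, by small amounts: *Igsf21* had 25.2 and 29.6 CPM against 36.9 and 38.3 CPM (-0.35, SE 0.09, edgeR adjusted p = 0.0210). The call of *Ephb6* was lost with DESeq2 and that of *Igsf21* with gates on separate UMIs.

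The 12 genes with the largest rise among those with at least 50 CPM were, in order, *Tmem132d*, *Prickle1*, *Nxph3*, *Brinp1*, *Pdzd2*, *Mc4r*, *Dpp10*, *Rgs6*, *Grik3*, *Kctd12*, *Cntnap5b* and *Necab1*, with log2 fold changes from 4.54 to 3.604. *Prickle1*, a planar cell polarity protein, stood at 375.4 and 390.2 CPM in members against 15.3 and 21.3 CPM (4.495, SE 0.15, edgeR adjusted p = 1.67e-06). *Nxph3*, a secreted ligand of alpha-neurexins, stood at 72.0 and 73.5 CPM against 3.37 and 3.76 CPM (4.46, SE 0.09, edgeR adjusted p = 5.20e-07). Both embryos gave nearly the same level in members for each of these genes. *Mc4r*, the melanocortin 4 receptor, stood at 56.0 and 73.7 CPM against 2.72 and 4.51 CPM (4.27, SE 0.23, edgeR adjusted p = 1.04e-05), and *Dpp10*, an auxiliary subunit of Kv4 potassium channels, at 242.2 and 311.7 CPM against 17.9 and 16.8 CPM (4.11, SE 0.13, edgeR adjusted p = 1.13e-06). *Kctd12*, an auxiliary subunit of GABA-B receptors, stood at 118.7 and 109.3 CPM against 9.65 and 9.30 CPM (3.70, SE 0.08, edgeR adjusted p = 5.20e-07).

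The 8 genes with the largest fall were *Mfap4*, *Plxna4os3*, *Unc5d*, *Kif26b*, *Slc17a6*, *Plxna4*, *Eomes* and *Cux2*, from -3.80 to -2.83. *Unc5d*, a netrin receptor of migrating multipolar and upper layer neurons, stood at 193.3 and 208.0 CPM in members against 2180 and 2117 CPM (-3.31, SE 0.07, edgeR adjusted p = 5.20e-07). *Plxna4*, a semaphorin receptor, stood at 161.7 and 192.3 CPM against 1440 and 1658 CPM (-3.02, SE 0.11, edgeR adjusted p = 2.18e-06). The transcript *Plxna4os3* from the opposite strand of that locus fell with it, 4.37 and 5.003 CPM against 52.7 and 60.8 CPM (-3.49, SE 0.13, edgeR adjusted p = 2.28e-06), and how strand was handled in counting is not given in the sources used here. *Slc17a6* (VGLUT2) stood at 15.8 and 14.9 CPM against 151.4 and 137.3 CPM (-3.12, SE 0.08, edgeR adjusted p = 7.69e-07). Its relative *Slc17a7* (VGLUT1) went the other way, with 37.7 and 34.2 CPM against 24.2 and 21.4 CPM (0.77, SE 0.09, edgeR adjusted p = 0.000479).

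**Figure D3:**
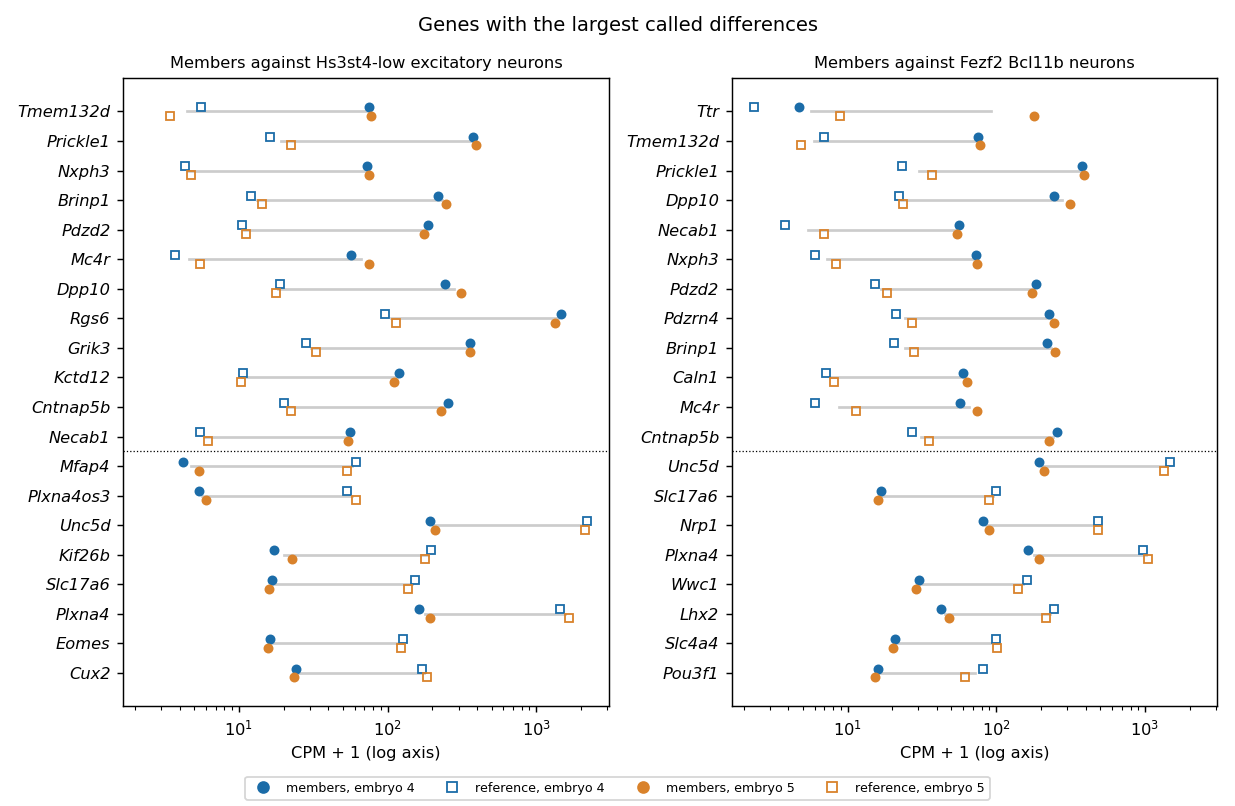
CPM plus 1 (log axis) of the genes with the largest called rises (above the dotted line) and falls (beneath it) in members (filled) against *Hs3st4*-low excitatory neurons (left) and *Fezf2* *Bcl11b* neurons (right), embryo 4 in blue and embryo 5 in orange. Filled and open symbols stand apart in every row except *Ttr* on the right, where 1 barcode of embryo 5 held most of the UMIs.

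Upper layer and callosal genes fell as a list: of 15 tested, 12 were lower and 2 higher, with a median log2 fold change of -2.08. The cut homeobox factor *Cux2* stood at 23.3 and 22.5 CPM in members against 169.1 and 182.2 CPM (-2.83, SE 0.08, edgeR adjusted p = 7.92e-07), and the POU factor *Pou3f1* fell as well. *Rorb*, a layer 4 receptor, and *Plxnd1* were the 2 that rose. The reference holds many such cells and also *Eomes* transcripts (127.0 and 122.1 CPM, against 15.3 and 14.7 CPM in members; -2.94, SE 0.07, edgeR adjusted p = 7.58e-07), and how much of these falls comes from the make-up of the reference was not tested.

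Of the layer 5 list 14 genes were tested, 9 higher and 3 lower, with a median of 1.13. *Fezf2* stood at 216.1 and 203.9 CPM in members against 87.0 and 74.2 CPM (1.49, SE 0.08, edgeR adjusted p = 1.18e-05), and *Bcl11b* at 894.9 and 941.0 CPM against 406.7 and 451.3 CPM (1.21, SE 0.07, edgeR adjusted p = 1.71e-05). *Etv1*, an ETS factor of layer 5 neurons, was lower at 5.79 and 5.72 CPM against 18.0 and 16.4 CPM (-1.47, SE 0.11, edgeR adjusted p = 6.29e-05), with *Crim1* and *Diaph3*. Genes known for layer 5 thus moved in both directions. Of 14 genes of newborn and migrating neurons 8 were lower and 3 higher, with a median of -0.50, and of 6 subplate genes 3 were higher and 2 lower, with a median of 0.34.

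Of the 8 tested genes of the R7 RGS complex, 5 were higher, *Rgs6* itself, the anchor *Rgs9bp*, the related *Rgs7* (80.5 and 86.1 CPM against 32.5 and 29.4 CPM; 1.54, SE 0.08, edgeR adjusted p = 7.92e-06), *Rgs9* (23.8 and 25.8 CPM against 3.67 and 3.55 CPM; 2.89, SE 0.10, edgeR adjusted p = 2.15e-06) and the obligate beta subunit *Gnb5* (28.4 and 26.7 CPM against 19.5 and 17.8 CPM; 0.68, SE 0.08, edgeR adjusted p = 0.000694). The orphan receptor *Gpr158*, which anchors R7 proteins at the membrane, was lower (8.14 and 10.3 CPM against 17.1 and 19.5 CPM; -0.88, SE 0.14, edgeR adjusted p = 0.00202), and the anchor *Rgs7bp* did not pass (0.17, edgeR adjusted p = 0.384). Among the Groucho co-repressors related to TLE4, *Tle1* was lower, 27.0 and 22.9 CPM against 84.0 and 87.0 CPM (-1.67, SE 0.09, edgeR adjusted p = 1.11e-05), *Tle3* was also lower (-0.96), and *Tle2* was higher (1.06).

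Of the TBR1 list, partners and genes known to respond to it, 14 were tested, 10 were higher and 2 lower, with a median of 0.94. *Grin2b*, an NMDA receptor subunit, stood at 1165 and 1257 CPM in members against 359.7 and 423.1 CPM (1.74, SE 0.09, edgeR adjusted p = 9.64e-06), and *Cask*, a scaffold kinase that binds TBR1, at 580.3 and 520.3 CPM against 326.1 and 344.5 CPM (0.82, SE 0.07, edgeR adjusted p = 0.000109). *Reln*, which encodes reelin, rose by 0.66 and *Cdh8* fell by 2.45. The list holds genes that TBR1 activates and genes that it represses, and its count is a description of members, not of TBR1 activity.

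Heparan sulfate is built by EXT polymerases, N-deacetylated and N-sulfated by NDST enzymes and sulfated further at set positions. Of the 18 tested genes of this list, 7 were higher and 5 lower in members, with a median of 0.21. *Hs3st3b1*, another 3-O-sulfotransferase, stood at 44.3 and 44.7 CPM in members against 0.789 and 0.763 CPM (5.94, SE 0.10, edgeR adjusted p = 4.48e-07), *Hs3st5* at 402.9 and 391.6 CPM against 108.4 and 118.1 CPM (1.92, SE 0.07, edgeR adjusted p = 1.88e-06) and *Hs3st2* at 37.6 and 41.0 CPM against 7.34 and 12.2 CPM (2.12, SE 0.22, edgeR adjusted p = 0.000273). Besides the gate gene 3 of these 3-O-sulfotransferases were thus higher, while *Hs3st1* was lower at 19.8 and 16.0 CPM against 70.5 and 60.2 CPM (-1.76, SE 0.12, edgeR adjusted p = 3.47e-05).

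The endosulfatase *Sulf1*, which removes 6-O-sulfate outside the cell, stood at 44.3 and 39.5 CPM in members against 4.09 and 3.07 CPM (3.66, SE 0.14, edgeR adjusted p = 2.38e-06). Among 6-O-sulfotransferases *Hs6st1* was higher (1.34, SE 0.10, edgeR adjusted p = 6.52e-05) and *Hs6st3* lower (-1.60, SE 0.07, edgeR adjusted p = 5.13e-06). The N-deacetylase *Ndst3* fell to 26.8 and 25.1 CPM from 143.2 and 160.9 CPM (-2.44, SE 0.09, edgeR adjusted p = 2.17e-06). After thinning, *Hs3st3b1* was found in 19.8% and 18.2% of members against 0.340% and 0.308% of *Hs3st4*-low excitatory neurons. *Hs3st3b1* spans 11:63884693-63922284, *Hs3st5* 10:36506590-36834397 and *Sulf1* 1:12692197-12861192, on chromosomes other than that of *Hs3st4*.

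Transmitter receptors and release genes were mostly higher. Of 22 glutamate receptor genes 12 rose and 4 fell, with a median of 0.48. The kainate receptor subunit *Grik3* stood at 358.3 and 358.4 CPM against 27.3 and 32.2 CPM (3.70, SE 0.09, edgeR adjusted p = 7.58e-07) and the AMPA receptor subunit *Gria1* at 424.9 and 458.9 CPM against 96.5 and 104.4 CPM (2.25, SE 0.07, edgeR adjusted p = 1.40e-06). Their relatives *Grik2* (-1.04, SE 0.10, edgeR adjusted p = 0.000247) and *Gria2* (-0.56, SE 0.06, edgeR adjusted p = 0.000234) were lower, and the later NMDA receptor subunit *Grin2a* stood at 6.72 and 8.13 CPM against 21.6 and 28.2 CPM (-1.64, SE 0.18, edgeR adjusted p = 0.000376). Of 26 synaptic vesicle and release genes 18 rose and 5 fell, with a median of 0.42, and of 25 potassium channel genes 14 rose and 8 fell, with a median of 0.34. Among the latter *Kcnip1*, which binds Kv4 channels, stood at 113.4 and 114.5 CPM against 34.3 and 27.0 CPM (2.01, SE 0.11, edgeR adjusted p = 1.12e-05).

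Axon guidance receptors went mostly the other way: of 33 tested, 17 fell and 8 rose, with a median of -0.425. *Robo2*, a receptor of SLIT repellents, stood at 506.6 and 442.3 CPM in members against 2926 and 2926 CPM (-2.52, SE 0.08, edgeR adjusted p = 1.13e-06), and *Nrp1*, a co-receptor of class 3 semaphorins, at 80.2 and 88.5 CPM against 490.7 and 508.1 CPM (-2.46, SE 0.07, edgeR adjusted p = 9.79e-07). *Ephb1*, an ephrin-B receptor, rose to 496.6 and 490.4 CPM from 88.6 and 94.3 CPM (2.54, SE 0.06, edgeR adjusted p = 7.58e-07). Guidance ligands were split, 7 higher and 8 lower of 24, and cadherins were split as well, 9 higher and 8 lower of 23, with *Cdh13* at 2332 and 2432 CPM against 545.5 and 638.9 CPM (2.12, SE 0.09, edgeR adjusted p = 3.60e-06).

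Markers of other cell types were read in the same sums. Of the 7 cell cycle genes all 7 were lower in members, with a summed level of 99.8 and 123.0 CPM against 235.0 and 265.0 CPM, and of the 6 intermediate progenitor genes all 6 were lower, with 94.7 and 85.0 CPM against 406.0 and 354.0 CPM. Of the 10 radial glia genes 2 were higher and 4 lower, with 1240 and 1280 CPM against 969.0 and 978.0 CPM. Thalamic genes summed to 91.0 and 104.0 CPM against 445.0 and 414.0 CPM, with *Gbx2* at 0 in members. Interneuron genes summed to 54.3 and 23.1 CPM against 20 and 13.8 CPM, and *Npy* was the 1 called, higher in members. Haemoglobin genes summed to 1166 and 825.4 CPM against 688.3 and 2170 CPM, and their groups overlapped. *Malat1*, a nuclear RNA, stood at 21880 and 22680 CPM against 17990 and 18690 CPM, and the part of these differences in the results was not tested.

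Members were next compared with 1647 and 1565 *Fezf2* *Bcl11b* neurons, to ask what separates them from the other deep layer neurons that carry the layer 5 factors. Layer 6 genes were again mostly higher, and several receptors of the SLIT, semaphorin and netrin families were lower. Of 15080 genes tested, 2344 were higher in members (15.5%) and 2028 lower (13.4%). These reference cells also belong to the wider reference above and the members' sums are shared, so the 2 comparisons are not independent. *Fezf2* and *Bcl11b* chose the reference here and were not tested; they stood at 181.8 and 184.3 CPM and at 594.7 and 657.1 CPM in it, no higher than in members.

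Of the layer 6 list 22 genes were tested and 18 were higher, the rest not passing the test, with a median log2 fold change of 1.48 against 0.00413 over all genes tested. *Rgs6* was 2.91 higher (SE 0.13, edgeR adjusted p = 5.60e-06), *Zfpm2* 2.37 (SE 0.08, edgeR adjusted p = 2.14e-06), *Foxp2* 1.73 (SE 0.10, edgeR adjusted p = 1.30e-05) and *Tbr1* 1.31 (SE 0.09, edgeR adjusted p = 2.74e-05). *Crym* differed less, with 23.1 and 27.5 CPM against 18.8 and 14.0 CPM (0.69, SE 0.15, edgeR adjusted p = 0.0108), and its call was lost when cells were thinned before gating (0.19) or gated on separate UMIs (0.43). The layer 5 list was divided, 6 higher and 3 lower of 12 tested, with a median of 0.35. *Kcnab1*, a potassium channel beta subunit, stood at 49.3 and 62.2 CPM in members against 10.6 and 9.84 CPM (2.52, SE 0.13, edgeR adjusted p = 8.05e-06), while *Crim1* stood at 42.6 and 43.4 CPM against 91.5 and 90.9 CPM (-1.01, SE 0.07, edgeR adjusted p = 2.98e-05).

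The 12 genes with the largest rise began with *Ttr*, *Tmem132d*, *Prickle1*, *Dpp10* and *Necab1* and also held *Nxph3*, *Pdzd2*, *Brinp1*, *Mc4r* and *Cntnap5b*. The others were *Pdzrn4* (224.9 and 243.3 CPM against 20.2 and 26.2 CPM; 3.41, SE 0.12, edgeR adjusted p = 2.35e-06) and *Caln1*, which encodes a calmodulin-like protein (58.4 and 62.3 CPM against 6.22 and 7.06 CPM; 3.26, SE 0.10, edgeR adjusted p = 2.00e-06). *Ttr* stood at 3.69 and 178.0 CPM against 1.35 and 7.93 CPM, its groups overlapped, and without the barcodes rich in *Ttr* or haemoglobin, an alternative chosen after seeing the data, its log2 fold change was -0.13.

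Among the 8 largest falls were *Unc5d* (193.3 and 208.0 CPM against 1476 and 1336 CPM; -2.73, SE 0.08, edgeR adjusted p = 2.00e-06), *Nrp1* (80.2 and 88.5 CPM against 482.8 and 483.1 CPM; -2.44, SE 0.07, edgeR adjusted p = 2.00e-06), *Plxna4* and *Slc17a6*. The others were *Wwc1*, a Hippo pathway scaffold, *Slc4a4*, a bicarbonate transporter, and the factors *Lhx2* and *Pou3f1*. *Lhx2* stood at 41.7 and 47.3 CPM against 243.4 and 215.4 CPM (-2.29, SE 0.09, edgeR adjusted p = 2.85e-06). Of 32 guidance receptors 14 were lower and 8 higher, with a median of -0.28, and of 15 upper layer genes 11 were lower and 2 higher, with a median of -1.65.

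Sulfation genes were split here too. *Hs3st3b1* stood at 44.3 and 44.7 CPM in members against 0.653 and 0.824 CPM (5.99, SE 0.14, edgeR adjusted p = 1.97e-06), *Sulf1* at 44.3 and 39.5 CPM against 1.44 and 3.56 CPM (4.18, SE 0.26, edgeR adjusted p = 2.24e-05) and *Hs3st5* at 402.9 and 391.6 CPM against 72.1 and 81.0 CPM (2.45, SE 0.08, edgeR adjusted p = 2.00e-06). Of the 18 tested, 7 were higher and 6 lower, with a median of 0.32. Of the glutamate receptor genes 13 were higher and 3 lower of 22, with a median of 0.74, and of 6 R7 RGS genes 4 were higher, with *Gpr158* lower again.

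The nearest group by summed *Hs3st4* and *Tle4* were the *Nr4a2* neurons, 142 and 183 cells, and the comparison with them asks what separates layer 6 members from that group. After thinning, *Hs3st4* was found in 56.4% and 42.2% of these cells and *Tle4* in 72.9% and 61.1%, so that the group mixes cells with and without *Hs3st4* UMIs. Members had more *Foxp2*, *Rgs6*, *Fezf2*, *Bcl11b* and *Dcc*, and fewer transcripts of the glutamate receptor subunits *Grin2a* and *Grin3a*, while *Grin1* (-0.07, edgeR adjusted p = 0.886) and *Grin2b* (0.30, edgeR adjusted p = 0.199) did not pass. Of 13496 genes tested, 280 were higher in members (2.07%) and 409 lower (3.03%). With the embryo as a block, since both sums of an embryo come from the same animal, 449 were higher and 636 lower. The 2 *Nr4a2* groups differed between the embryos for several genes, and their small number limits the depth of these sums.

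Of the 22 layer 6 genes tested 9 were higher and 1 lower, with a median log2 fold change of 0.47 against -0.00228 over all genes tested. *Foxp2* stood at 822.8 and 675.0 CPM in members against 256.2 and 197.4 CPM (1.79, SE 0.14, edgeR adjusted p = 0.000316), *Rgs6* at 1469 and 1331 CPM against 637.4 and 614.9 CPM (1.23, SE 0.09, edgeR adjusted p = 0.000267), and *Syt6*, a synaptotagmin, at 95.7 and 77.9 CPM against 23.2 and 14.1 CPM (2.30, SE 0.20, edgeR adjusted p = 0.000520). *Tbr1*, at 240.8 and 205.1 CPM against 200.4 and 195.0 CPM, did not pass (0.24, edgeR adjusted p = 0.271). *Crym*, at 23.1 and 27.5 CPM against 17.9 and 15.6 CPM, did not pass either (0.67, edgeR adjusted p = 0.0699) but did with the embryo as a block (edgeR adjusted p = 0.0370), as did *Nxph3*. *Thsd7b* was the list gene that was lower (-1.81, SE 0.18, edgeR adjusted p = 0.000925).

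The deep layer factors separated these groups. *Fezf2* stood at 216.1 and 203.9 CPM in members against 132.6 and 90.3 CPM (0.99, SE 0.15, edgeR adjusted p = 0.00633) and *Bcl11b* at 894.9 and 941.0 CPM against 503.1 and 522.2 CPM (0.91, SE 0.09, edgeR adjusted p = 0.000700). *Kcnab1*, higher in members than in *Fezf2* *Bcl11b* neurons, was lower than in *Nr4a2* neurons (49.3 and 62.2 CPM against 181.2 and 182.1 CPM; -1.64, SE 0.12, edgeR adjusted p = 0.000262), and its call was lost when cells were gated on separate UMIs (-0.70).

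Among the 12 largest rises were *Kctd8*, another auxiliary subunit of GABA-B receptors (110.6 and 83.8 CPM against 8.04 and 10.9 CPM; 3.41, SE 0.22, edgeR adjusted p = 0.000142), the palmitoyltransferase gene *Zdhhc14* (235.8 and 264.2 CPM against 43.7 and 37.5 CPM; 2.69, SE 0.12, edgeR adjusted p = 1.29e-05) and *Kcnq3*, a subunit of M-type potassium channels (1817 and 1759 CPM against 639.2 and 692.6 CPM; 1.49, SE 0.09, edgeR adjusted p = 0.000110). The others were *Syt6*, *Apcdd1*, *Kif26a*, *Foxp2*, *Reln*, *Dpf3*, *Mc4r*, *Tox* and *Kit*, from 2.30 to 1.42. In each of these the embryos of members stood above both of the *Nr4a2* neurons. The *Reln* call was lost with DESeq2 (1.62), with a limit of 8 *Hs3st4* UMIs (1.32) and with gates on separate UMIs (1.34).

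The 8 largest falls held 2 NMDA receptor subunits. *Grin2a* stood at 6.72 and 8.13 CPM in members against 110.3 and 134.5 CPM (-3.98, SE 0.15, edgeR adjusted p = 1.13e-05), while *Grin3a* stood at 4.20 and 3.04 CPM against 37.9 and 191.5 CPM (-4.93, SE 0.66, edgeR adjusted p = 0.00344), a wide gap between the 2 *Nr4a2* groups. *Unc13c*, a vesicle priming factor, stood at 3.44 and 5.36 CPM against 66.1 and 131.3 CPM (-4.44, SE 0.33, edgeR adjusted p = 0.000270). *Angpt1*, *Il1rapl2*, *Fstl4*, the netrin receptor *Unc5c* and *Cdh10* were lower as well. Over lists, 10 of 20 glutamate receptor genes were lower and 3 higher, with a median of -0.69, and 7 of 26 release genes were lower and 1 higher, with a median of -0.02. *Grik3* did not pass in the main fit or its alternatives, with log2 fold changes from -0.13 to 0.21. *Dcc*, the attractive netrin receptor, was higher, 2608 and 2732 CPM against 1459 and 1447 CPM (0.94, SE 0.08, edgeR adjusted p = 0.000570).

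In the sulfation list *Hs3st5* stood at 402.9 and 391.6 CPM in members against 238.8 and 292.8 CPM (0.64, SE 0.11, edgeR adjusted p = 0.0117), and *Hs3st3b1*, at 44.3 and 44.7 CPM against 46.0 and 30.1 CPM, had overlapping groups. Of 17 genes tested 2 were higher and 3 lower, with a median of -0.23. *Hs3st2*, higher in members than in *Hs3st4*-low excitatory neurons, was among those lower here. Its log2 fold change ran from -1.06 to -0.43 over the main fit and its alternatives, and its call was not kept in all of them. The 2 groups with the highest summed *Hs3st4* thus both held *Hs3st3b1*, which was under 1 CPM in *Fezf2* *Bcl11b* and *Hs3st4*-low excitatory neurons.

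**Figure D4:**
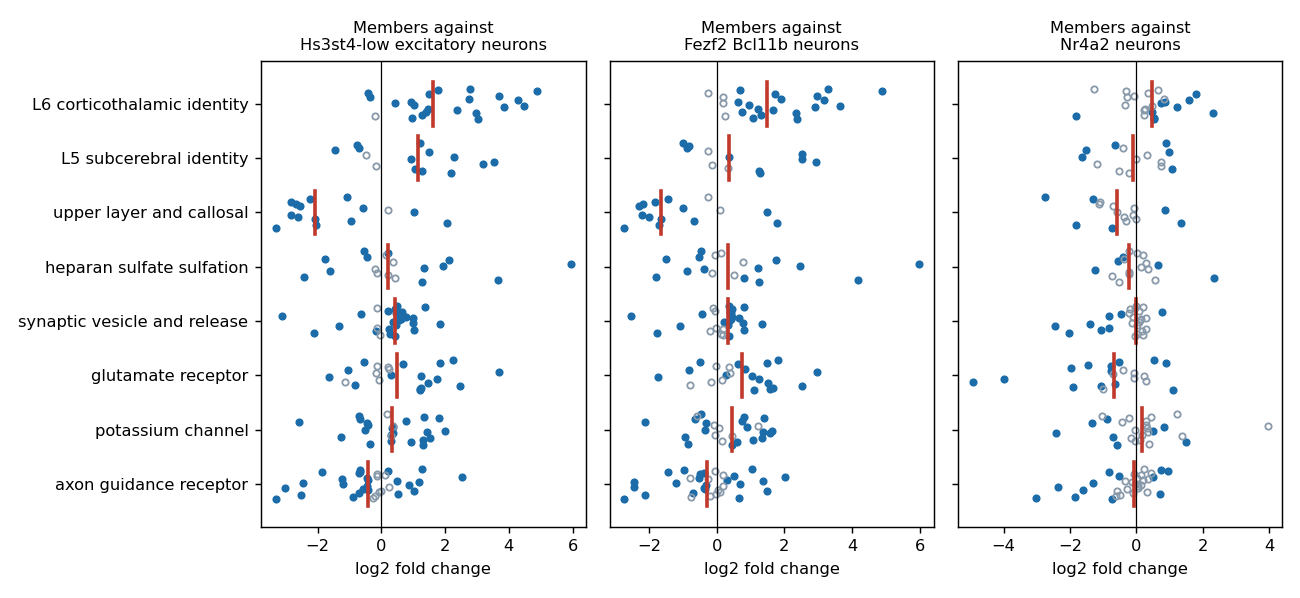
Log2 fold change of the tested genes of 8 lists in members against 3 reference groups, filled where edgeR's adjusted p was under 0.05, with the list's median as a red bar; the references overlap and share the members' sums. The layer 6 medians are 1.62, 1.48 and 0.47 from left to right and the upper layer medians -2.08, -1.65 and -0.59.

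How members vary among themselves was read at equal depth. Members thinned to 5000 UMIs were split by their thinned *Hs3st4* count within each embryo: the low tercile had at most 5 UMIs in embryo 4 (268 cells) and at most 6 in embryo 5 (333 cells), and the high tercile more than 11 (246 and 270 cells). Members with more *Hs3st4* also had more *Foxp2*, *Zfpm2*, *Rgs6*, *Tbr1* and the 3-O-sulfotransferases *Hs3st3b1* and *Hs3st5*, and fewer transcripts of *Fezf2*, *Crym* and several guidance receptors. Of 9694 genes tested, 290 were higher in the high tercile (2.99%) and 322 lower (3.32%). With the embryo as a block 408 were higher and 502 lower. The split used *Hs3st4* itself, which was not tested. The same gene chose the members, and the low tercile lies toward the limit, where *Rgs6* and *Foxp2* graded into barcodes outside it. Differences between terciles are therefore a description, not separate support for the comparisons above. Of the 290, 1 was a gate gene, *Tle4*, and 289 were higher without it; *Tle4* stood at 1209 and 1426 CPM against 476.9 and 600.0 CPM, given as a description.

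*Hs3st5* stood at 730.1 and 678.5 CPM in the high tercile against 176.1 and 200 CPM in the low (log2 fold change 1.92, SE 0.10, edgeR adjusted p = 2.22e-08), *Hs3st3b1* at 100.8 and 82.2 CPM against 20.2 and 27.0 CPM (1.95, SE 0.20, edgeR adjusted p = 1.51e-05) and *Sulf1* at 89.4 and 65.2 CPM against 14.2 and 27.6 CPM (1.86, SE 0.25, edgeR adjusted p = 0.000175). *Hs6st1* was higher too (1.36, SE 0.19, edgeR adjusted p = 0.000201). Of the 15 sulfation genes tested these 4 passed the test, all higher, with a median of 0.06 over the list. Against *Hs3st4*-low excitatory neurons the log2 fold changes of *Hs3st5*, *Hs3st3b1*, *Sulf1* and *Hs6st1* in all members were 1.92, 5.94, 3.66 and 1.34.

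Leaving out *Tle4*, which has a minimum in the gate, 21 layer 6 genes were tested, 10 were higher and 2 lower, with a median of 0.71 against 0.00126 over all genes tested. *Foxp2* stood at 1261 and 1024 CPM against 632.1 and 494.9 CPM (1.04, SE 0.12, edgeR adjusted p = 2.85e-05), *Zfpm2* at 1883 and 2020 CPM against 1040 and 1007 CPM (0.95, SE 0.08, edgeR adjusted p = 4.31e-06) and *Rgs6* at 2054 and 1913 CPM against 1236 and 1136 CPM (0.76, SE 0.08, edgeR adjusted p = 2.27e-05). *Tbr1* differed by 0.71 (343.9 and 289.6 CPM against 224.6 and 171.2 CPM; SE 0.13, edgeR adjusted p = 0.00220). *Crym* went the other way, 8.13 and 12.6 CPM against 23.9 and 23.4 CPM (-1.15, SE 0.32, edgeR adjusted p = 0.0431), and lost its call with DESeq2 (-1.16), at 3000 UMIs (-1.42) and with a split at the median (-0.68). The other lower gene was *Thsd7b*, from -3.09 to -1.44 over the main fit and its alternatives, with a call not kept in all of them. *Sox5* did not pass (0.19, edgeR adjusted p = 0.198) but did with the embryo as a block (edgeR adjusted p = 0.00913).

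*Fezf2* stood at 154.5 and 160.7 CPM in the high tercile against 265.7 and 261.9 CPM in the low (-0.72, SE 0.10, edgeR adjusted p = 0.000325), and *Ldb2*, a LIM domain binding protein, at 379.7 and 433.3 CPM against 777.6 and 761.0 CPM (-0.90, SE 0.09, edgeR adjusted p = 1.52e-05). *Bcl11b* did not pass (-0.09, edgeR adjusted p = 0.684). *Reln* was lower in the high tercile, 37.4 and 49.6 CPM against 135.8 and 106.3 CPM (-1.44, SE 0.18, edgeR adjusted p = 9.10e-05). The embryos gave *Fezf2* levels within a few CPM of each other in both terciles.

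Among the 6 largest rises were *Htr1f*, *Kcnab1*, *Dpp10*, *Hs3st3b1* and *Hs3st5*. The call of *Dpp10* was lost with DESeq2 (2.03, DESeq2 adjusted p = 0.0631). *Htr1f*, a serotonin receptor, stood at 70.7 and 76.3 CPM against 9.70 and 22.2 CPM (2.17, SE 0.26, edgeR adjusted p = 4.88e-05) and *Kcnab1* at 93.5 and 123.7 CPM against 20.2 and 28.8 CPM (2.15, SE 0.21, edgeR adjusted p = 8.62e-06). Potassium channel genes were higher in 8 and lower in 1 of 20 tested, with a median of 0.42. The 1 that fell, *Kcnq5*, an M-type channel subunit, stood at 69.9 and 94.8 CPM against 369.4 and 324.3 CPM (-2.04, SE 0.14, edgeR adjusted p = 3.02e-07), while its relative *Kcnq3* rose by 0.41 (SE 0.09, edgeR adjusted p = 0.00648).

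Among the 6 largest falls, *Dach1* stood at 13.0 and 6.67 CPM in the high tercile against 71.6 and 75.1 CPM (-2.89, SE 0.26, edgeR adjusted p = 5.44e-06), *Gabra2*, a GABA-A receptor subunit, at 13.0 and 8.89 CPM against 60.5 and 64.3 CPM (-2.49, SE 0.24, edgeR adjusted p = 8.21e-06), and *Tafa1*, a secreted protein gene, at 24.4 and 1.48 CPM against 100 and 49.3 CPM (-2.52, SE 0.49, edgeR adjusted p = 0.00392). The calls of *Tafa1*, *Hba-a1* and *Hba-a2* were lost with DESeq2. The other 3 were the haemoglobin genes *Hba-a2*, *Hbb-bt* and *Hba-a1*, of which *Hba-a1* and *Hba-a2* are near-identical copies whose reads may be split. Haemoglobin genes summed to 178.0 and 331.9 CPM in the high tercile against 2374 and 899.7 CPM in the low, and 2 barcodes per embryo held most of the members' haemoglobin; without the barcodes rich in haemoglobin or *Ttr*, *Hbb-bt* was at 0.42 and *Hba-a1* at 0.44.

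Guidance receptors were lower in 8 and higher in 4 of 29 tested. *Nrp1* stood at 21.1 and 26.7 CPM against 94.0 and 102.1 CPM (-2.01, SE 0.19, edgeR adjusted p = 8.21e-06), *Plxna4* at 65.9 and 43.7 CPM against 189.6 and 196.4 CPM (-1.81, SE 0.15, edgeR adjusted p = 4.31e-06) and *Robo1* at 617.1 and 752.6 CPM against 1550 and 1515 CPM (-1.14, SE 0.10, edgeR adjusted p = 4.31e-06). Of 21 guidance ligands 6 passed the test, all lower. Of 14 upper layer genes 7 were lower and 2 higher, with a median of -0.86.

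**Figure D5:**
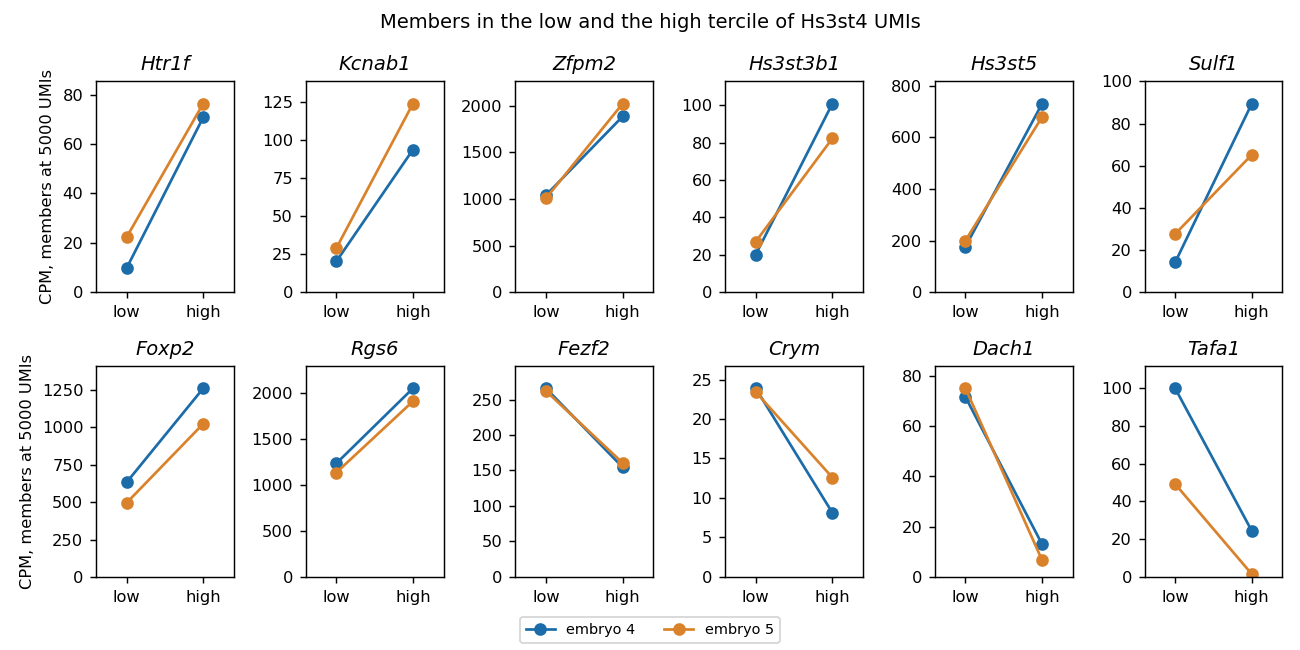
CPM of 12 genes in the low and the high tercile of members by *Hs3st4*, after thinning every member to 5000 UMIs, 1 line per embryo. The sulfation genes *Hs3st3b1*, *Hs3st5* and *Sulf1* and the layer 6 genes *Foxp2*, *Zfpm2* and *Rgs6* rise in both embryos, and *Fezf2*, *Crym*, *Dach1* and *Tafa1* fall in both.

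Other quantities moved with the terciles. *Malat1* stood at 24750 and 25590 CPM in the high tercile against 21460 and 21890 CPM, and ribosomal protein genes at 80000 and 82980 CPM against 94660 and 96530 CPM. Genes called higher had a median span of 178.0 kb and genes called lower 74.7 kb, against 29.2 kb over all genes tested; *Hs3st4* itself spans 416.6 kb. Of the 6 radial glia genes tested 4 were lower in the high tercile. The part of these values in the difference between terciles was not tested.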

How the data were processed

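The authors prepared 1 library per embryo and deposited, for each, a matrix of UMI counts per gene and barcode, with 32285 genes. Per the submitters' processing notes the tool was Cell Ranger 7.0.0 with mm10, while the header of the deposited count matrix names 7.1.0; whether intron reads were counted is not given in the sources used here. The members and gene lists were chosen with earlier results of these data known. Raw counts were summed per embryo and group. They were fitted with edgeR 4.0.16 in R 4.3.3 (TMM scaling, filterByExpr, quasi-likelihood test, Benjamini-Hochberg adjustment), leaving out the genes that defined either group (in the split of members, *Hs3st4* alone); log2 fold changes are those of the fit. CPM are summed counts scaled to a common total. The counts are whole UMIs, so precision follows from their number; 3′ counts are not compared between genes. Gates, thinning, doublet scores (simulated pairs, 0.8% per 1000 barcodes) and random splits used Python 3.11.15, numpy 2.4.6 and scikit-learn 1.9.0 with seed 1. The edgeR fits were tested on simulated counts.

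Named genes were the markers, list members and, in each comparison, the 12 largest rises and 8 largest falls (6 and 6 between terciles) among called genes with at least 50 CPM in the higher group and 1 direction in both embryos. Unnamed gene models and mitochondrial and ribosomal protein genes were left out, and a few genes of the rule and the lists are not reported here. Embryos pair the sums, since both come from 1 animal: the correlation of their deviations was 0.304, 0.292, 0.158 and 0.104 in the 4 comparisons. A fit with this pairing as a replicate block was an alternative, as the study's methods state no such test. Other alternatives were DESeq2 1.42.0, its size factors, no filter, other limits on *Hs3st4*, genes and mitochondrial share, thinning, doublet removal, other references, leaving out each embryo, and, chosen after seeing the data, leaving out barcodes with at least 20 haemoglobin or *Ttr* UMIs. Coordinates and promoters were matched by symbol to RefSeq GRCm38.p6.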

Additional observations from a re-analysis of the deposited data

Results flagged for a closer look

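Transcripts of *Hs3st4* were also found outside excitatory neurons. Of the *Gad1* *Gad2* neurons, 25 in embryo 4 (1.96% of 1273) and 13 in embryo 5 (0.989% of 1315) carried at least 5 *Hs3st4* UMIs, cells that the report's comparisons did not use. The count in *Sox2* *Hes5* progenitors was 1 (0.111%) and 1 (0.117%), although these cells were more deeply sampled, with a median of 12239 and 11400 UMIs against 6910 and 6668. At least 1 *Hs3st4* UMI was found in 8.33% and 4.64% of *Gad1* *Gad2* neurons and in 4.32% and 3.62% of the progenitors. The source of these transcripts was not tested.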

How the results depend on the processing

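With 1 embryo left out there is no test; 3205 to 3206 of the higher and 3035 of the lower calls against *Hs3st4*-low excitatory neurons kept their direction, all of those against the other references, and 290 of the higher and 321 to 322 of the lower calls between terciles. DESeq2's size factors changed no call of a named gene. Against *Fezf2* *Bcl11b* neurons 1554 genes were higher and 1276 lower with DESeq2, 1393 and 1291 with cells thinned to 5000 UMIs before gating, and 1338 and 1072 with gates and sums on separate UMIs. The gates on thinned cells and on separate UMIs used at least 3 *Hs3st4* UMIs for members. Against *Nr4a2* neurons the replicate block gave 449 and 636, thinning 256 lower, and separate UMIs 161 and 206. Between terciles DESeq2 called 149 and 115, and the replicate block 502 lower. The replicate block gave 4120 higher and 4088 lower against *Hs3st4*-low excitatory neurons, and 3217 and 3025 against *Fezf2* *Bcl11b* neurons. The blocked fits lost no call of a named gene. The share of members was 8.24% and 8.13% with at least 3 *Hs3st4* UMIs, 6.65% and 6.52% with at least 8, 7.98% in embryo 4 with at least 2000 genes, and in embryo 5 6.58% after thinning and 6.79% with separate UMIs. Signs turned for *Igsf21* (0.0191), *Ephb6* (0.0826), *Pcp4* (0.35), *Hs6st2* (0.39) and *Ndst4* (-0.82) against all other kept barcodes; against *Fezf2* *Bcl11b* neurons for *Ndst4* (-0.16 with at least 8 *Hs3st4* UMIs, -0.37 with separate UMIs), *Ldb2* (-0.20 thinned, -0.11 with separate UMIs) and *Ttr* (-0.13 without doublet-like and -0.13 without haemoglobin-rich or *Ttr*-rich barcodes); and between terciles for *Hbb-bt* and *Hba-a1* (0.35 and 0.29 without doublet-like, 0.42 and 0.44 without haemoglobin-rich or *Ttr*-rich barcodes). The cause was not tested. With 2 embryos, p-values rest on 4 sums and 2 residual degrees of freedom before moderation.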
